A study of Mus musculus with 2 samples.

Results

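This account covers 8 genes that leukocytes use to leave the blood and settle in tissue: the chemokine receptor genes Ccr1, Ccr2, Cx3cr1 and Cxcr4, the selectin ligand gene Selplg, and the integrin alpha chain genes Itgam, Itgal and Itga4. They were taken by symbol and are 8 of the 31053 genes listed for each library. RNA had been measured in single monocytes and macrophages from mouse skin wounds, on day 6 after injury, with droplet libraries that read the 3′ end of polyadenylated RNA. There was 1 library from diabetic mice and 1 from non-diabetic mice, both made from skin digested with enzymes, and the cells of 2 mice of each strain were combined before loading. The labels name neither the strains nor the diabetic model, the age of the mice or how the cells were selected, so a difference between strains cannot be told apart from diabetes. With 1 library in each condition nothing was tested, and every interval given is a 95% interval for counting error, which leaves out the variation between mice and between cells.

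Leukocytes enter an inflamed tissue in steps. P-selectin glycoprotein ligand 1, the product of Selplg, lets them roll on activated vessel walls. Chemokines then signal through G protein-coupled receptors, and this signal switches integrins to a state that binds tightly to the endothelium. CCR2 is the receptor by which classical monocytes leave the bone marrow and reach wounds, and CX3CR1 marks non-classical monocytes and many tissue macrophages. CCR1 binds CCL3 and related chemokines, and CXCR4 binds CXCL12. Itgam encodes CD11b and Itgal encodes CD11a, which pair with the beta chain encoded by Itgb2, while Itga4 encodes the alpha chain of the integrin that binds VCAM1.

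In the GENCODE M21 annotation of the mm10 build, which the submitters' processing notes name, Ccr1, Ccr2 and Cx3cr1 lie on chromosome 9, at chr9:123962124-123968692 (minus strand), chr9:124101950-124113557 (plus) and chr9:119901616-120069879 (minus). Cxcr4 lies at chr1:128588199-128592293 (minus) and Selplg at chr5:113818536-113832644 (minus). Itgal and Itgam lie on chromosome 7, at chr7:127296260-127335138 and chr7:128062640-128118491, and Itga4 at chr2:79255426-79333123, all on the plus strand. Their gene IDs are ENSMUSG00000025804 (Ccr1), ENSMUSG00000049103 (Ccr2), ENSMUSG00000052336 (Cx3cr1), ENSMUSG00000045382 (Cxcr4), ENSMUSG00000048163 (Selplg), ENSMUSG00000030786 (Itgam), ENSMUSG00000030830 (Itgal) and ENSMUSG00000027009 (Itga4). Itgam shares 3454 bases at 99.9% identity with the overlapping gene model Gm49368 on the same strand, which had 362 UMIs in the diabetic and 429 UMIs in the non-diabetic kept cells, so the split of reads between the pair is uncertain. Exons of Cerkl on the opposite strand overlap Itga4, and Cerkl had 27 and 7 UMIs. Exons of Wdr48 and Gm33858 overlap Cx3cr1 on the opposite strand, with 415 and 270 UMIs for Wdr48, and 0 and 4 UMIs for Gm33858, in the diabetic and non-diabetic cells.

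RefSeq promoter windows on GRCm38.p6 were at hand for 6 of the 8 genes, and the 250 bases before the start were searched on both strands for 5 sets of letters known to bind transcription factors. The letters searched were GGAAGT (ETS), TGTGGT (RUNX), TTGCNNAA (C/EBP), TGANTCA (AP-1) and GGGCGG (GC box). The RUNX letters were found once each before Ccr1, Cx3cr1 and Itga4, in all of them as the reverse complement, beginning 58, 54 and 60 bases before the start. They occur in 14.0% of all 32851 promoter windows of the table. The 30 bases around each match are shown because the match falls at a like distance in the 3 genes, with the matched letters in capitals, 5′ to 3′ on the strand of the gene. The Cx3cr1 stretch lies in an exon of that gene in the GENCODE annotation.
Ccr1, chr9:123968733-123968762, minus strand: ggctcctcactgACCACAagaactctatga
Cx3cr1, chr9:120068333-120068362, minus strand: taaagatagggtACCACAcaggaaaccaga
Itga4, chr2:79255354-79255383, plus strand: gtgagccactgcACCACAcccaggacccca
GC box letters were found in 3 places before Cxcr4 and once each before Itgam and Itga4, and they occur in 32.7% of all windows. The ETS, C/EBP and AP-1 letters were in none of the 6 windows, against 19.7%, 9.56% and 6.75% of all windows. The whole 250 bases are shown for Itga4 and Itgam, which stood far apart in Orm1-led and Inhba-led cells as described further on, with the GC box letters in capitals. These letters are a description of the windows and do not show that a factor binds there.
Itga4, chr2:79255176-79255425, plus strand: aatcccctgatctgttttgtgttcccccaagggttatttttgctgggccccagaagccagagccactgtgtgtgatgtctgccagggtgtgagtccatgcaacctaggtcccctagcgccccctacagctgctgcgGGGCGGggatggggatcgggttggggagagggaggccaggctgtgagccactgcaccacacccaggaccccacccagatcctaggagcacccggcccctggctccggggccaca
Itgam, chr7:128062390-128062639, plus strand: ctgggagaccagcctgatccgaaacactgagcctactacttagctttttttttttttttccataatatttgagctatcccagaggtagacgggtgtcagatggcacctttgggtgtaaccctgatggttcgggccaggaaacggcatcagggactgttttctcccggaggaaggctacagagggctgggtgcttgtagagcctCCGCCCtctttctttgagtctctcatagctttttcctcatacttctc

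Kept cells, those passing 500 genes and staying below 10% mitochondrial UMIs (unique molecular identifiers, each standing for 1 captured RNA molecule), numbered 1755 in the diabetic and 1123 in the non-diabetic library, with 30435047 and 15429273 UMIs and medians of 16314 and 14079 UMIs per cell. The libraries were less alike before filtering, with 2214 diabetic and 2026 non-diabetic barcodes and medians of 14633.5 and 5094.5 UMIs. Of these, 447 diabetic and 889 non-diabetic barcodes failed on the mitochondrial share, and 193 and 254 on the number of genes. The libraries shared 6 barcodes, 1 of them among the kept cells. Markers of the labelled cell types were present: all 10 genes of a classical monocyte list and all 12 of a macrophage list were detected in each library. Markers of T, NK and B cells, mast cells, keratinocytes and red cells each summed to at most 8.74 CPM (UMIs of a gene or list over all UMIs of the summed cells, scaled to 1e+06) in either library. The neutrophil list summed to 4602 CPM in the diabetic library against 255 CPM in the non-diabetic one, and the fibroblast list to 54.8 against 292.5 CPM. Endothelial markers summed to 64.0 CPM in the diabetic library against 27.8 CPM in the non-diabetic one, and pericyte markers to 9.92 against 9.40 CPM. The cells were clustered without the 8 genes and without the related genes described further on, so that these did not shape the clusters. Of the 15 clusters, called states here, 4 could be named from markers and the others are called by a leading gene or, for 1 of them, low-depth. Most states came largely from a single library, and a state may then stand for the library as much as for a kind of cell.

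Over all kept cells 7 of the 8 genes were lower in the diabetic library, and Ccr2 and Selplg were lower by more than 1.5 times. Ccr2 had 14031 UMIs in the diabetic library, or 461 CPM, against 13294 UMIs or 862 CPM in the non-diabetic one, 1.87-fold lower (interval 1.83 to 1.91). In single cells, 575 of the 1755 diabetic cells held no Ccr2 UMI and 891 held at least 5, against 189 and 730 of the 1123 non-diabetic cells. The other chemokine receptor genes differed by less. Ccr1 was at 259 CPM in the diabetic library against 372 CPM in the non-diabetic one, a log2 ratio of -0.52 (interval -0.57 to -0.47). Cx3cr1 was at 37.0 and 51.7 CPM (log2 ratio -0.48, -0.61 to -0.35) and Cxcr4 at 136 and 187 CPM (log2 ratio -0.46, -0.53 to -0.40), in the same order of libraries.

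Selplg was at 101 CPM in the diabetic library against 203 CPM in the non-diabetic one, 2.005-fold lower (1.91 to 2.11). The integrin genes did not move as a group. Itga4 was at 57.8 CPM in the diabetic library against 85.0 CPM in the non-diabetic one (log2 ratio -0.56, -0.66 to -0.45). Itgam, at 627 and 659 CPM, differed by a log2 ratio of only -0.07 (-0.11 to -0.04). Itgal was at 38.1 CPM in the diabetic library against 35.2 CPM in the non-diabetic one, and the interval of its log2 ratio of 0.11 reached below 0 (-0.03 to 0.26). With DESeq2 size factors that ratio was -0.0083. The median log2 ratio of the 8 genes was -0.50, beside 0.12 over the 12337 genes with at least 20 UMIs. Of those genes 39.8% were lower in the diabetic library, 12.9% were lower by at least 1.5 times and 18.7% were higher by at least 1.5 times, while 2 of the 8 genes were lower and 0 were higher by that fold. With edgeR's TMM scaling the log2 ratios shift by -0.11 and 5 of the 8 genes were lower by at least 1.5 times, beside 15.7% of all measured genes. The lower genes then made up 51.9% of all genes past the fold, against 40.7% with the total as the scale. Without the diabetic Orm1-led state described next, left out after the data were seen, the median log2 ratio of the 8 genes was -0.25 (0.17 over all genes), with Ccr2 at -0.61, Cx3cr1 at -0.20, Cxcr4 at -0.23 and Itga4 at -0.27. Without the non-diabetic Inhba-led state Itgam stood at 0.24.

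**Figure D1:**
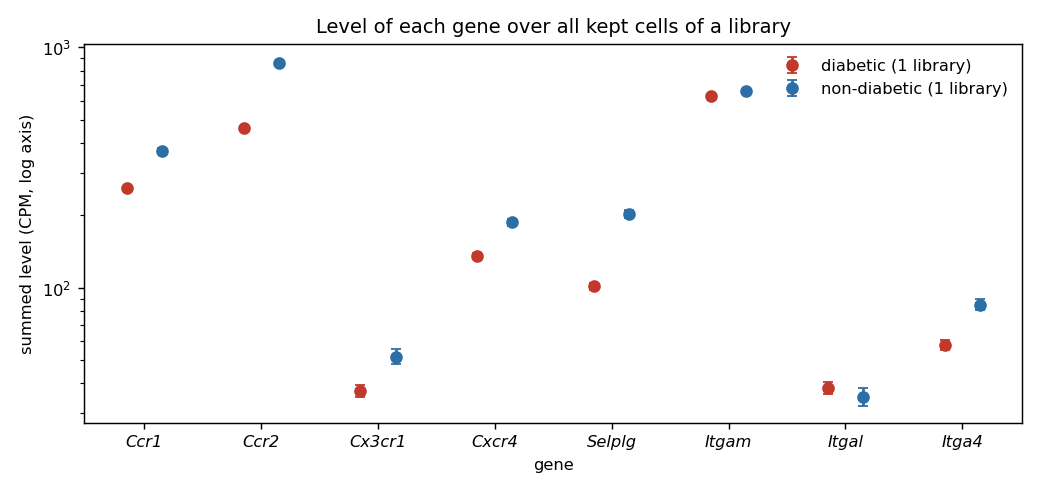
Summed level of each gene over all kept cells, in CPM on a log axis, with the diabetic library (red) left of the non-diabetic library (blue); bars are 95% counting intervals and are often smaller than the points. The diabetic point lies below the non-diabetic one for every gene but Itgal, and the widest gaps are those of Selplg (101 against 203 CPM) and Ccr2 (461 against 862 CPM).

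The states were ordered by the share of macrophage markers among the UMIs of 8 monocyte and 11 macrophage marker genes, none of which is among the 8 genes. The classical monocyte-like state (138 diabetic and 156 non-diabetic cells) stood at the monocyte end with a macrophage share of 10.97%, and the macrophage-like state led by the scavenger receptor gene Cd163 (212 and 28 cells) at the other end with 86.0%. A conventional dendritic cell-like state (60 and 123 cells) and 16 diabetic neutrophil-like cells were kept outside the monocyte and macrophage set. The unnamed states fell between, among them an Ifit2-led state rich in interferon-induced genes (35 and 181 cells), an Inhba-led state (7 and 230 cells), an Mpp7-led state (4 and 212 cells), an Orm1-led state (307 and 1 cells), an Nrg1-led state (318 and 7 cells) and a Cd79b-led state (221 and 16 cells). Levels are given for states with at least 20 cells of a library. Between neighbours in the order of 14 states over both libraries, intervals overlapped in 5 pairs for Ccr2, 7 for Itgam, 8 for Cxcr4, 10 each for Ccr1, Selplg and Itga4, 11 for Cx3cr1 and 12 for Itgal, so the order of such neighbours is not resolved.

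Ccr2 had a 37.6-fold range between the 11 diabetic states and a 6.18-fold range between the 8 non-diabetic states. It was at 852 CPM in diabetic and 1188 CPM in non-diabetic classical monocyte-like cells, and at 921 and 1251 CPM in Ifit2-led cells. High levels were not limited to the monocyte end: the diabetic Cd79b-led cells, with a macrophage share of 68.2%, had 1038 CPM (1003 to 1073) and the diabetic Lyz1-led cells 1016 CPM. The macrophage-like cells had 94.1 CPM in the diabetic library against 202 CPM in the non-diabetic one. The lowest level was that of the Orm1-led diabetic cells, at 27.6 CPM (23.5 to 32.2, 162 UMIs in 307 cells). After thinning each cell to 2000 UMIs, 8 of 303 Orm1-led cells held a Ccr2 UMI (2.64%, exact binomial interval 1.15 to 5.14%), against 110 of 136 diabetic classical monocyte-like cells (80.9%, 73.3 to 87.1%). Unthinned, these shares were 11.4% and 97.8%. RNA free in the droplets can give UMIs to cells that do not express a gene. Its part in the Ccr2 levels was not tested.

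Cx3cr1 was highest in the Cd79b-led diabetic cells, at 136 CPM (124 to 149), and next in the classical monocyte-like cells, at 78.8 CPM in the diabetic library against 113 CPM in the non-diabetic one. The Cd79b-led cells were 12.6% of the diabetic cells and held 39.6% of the Cx3cr1 UMIs of that library. In the non-diabetic library the largest part, 32.7%, came from classical monocyte-like cells. The 16 non-diabetic Cd79b-led cells, 1.42% of that library's cells, held 66 Cx3cr1 UMIs, 8.28% of its total. Cx3cr1 was near 0 in Orm1-led diabetic cells (3.23 CPM, 19 UMIs) and in Inhba-led non-diabetic cells (3.62 CPM, 10 UMIs), and macrophage-like cells had 17.7 CPM in the diabetic library against 56.9 CPM in the non-diabetic one.

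Ccr1 and Cxcr4 followed other orders. Ccr1 was at 590 CPM in diabetic and 385 CPM in non-diabetic classical monocyte-like cells, and the Inhba-led non-diabetic cells reached 542 CPM (515 to 570). The lowest Ccr1 levels were 134 CPM in the diabetic Lpl-led cells and 137 CPM in the low-depth non-diabetic cells, and Orm1-led cells kept 201 CPM. Cxcr4 was highest in the Nrg1-led diabetic cells (282 CPM, 267 to 298) and in the Ifit2-led non-diabetic cells (272 CPM, 252 to 294). The Cd79b-led diabetic cells, which had the most Cx3cr1, were low in Cxcr4, at 54.0 CPM, and the Orm1-led diabetic cells lower still, at 34.9 CPM (30.3 to 40.02). Fos, a gene of the immediate early response that tissue digestion can also set off, had the state profile most like that of Cxcr4. A list of immediate early and dissociation genes summed to 14096 CPM in Nrg1-led, 7244 CPM in Orm1-led and 6377 CPM in Cd79b-led diabetic cells, and to 17422 CPM in Ifit2-led non-diabetic cells. The list and Cxcr4 did not move together in every state: the list reached 22823.5 CPM in Lyz1-led diabetic cells, with Cxcr4 at 191 CPM, and 9601 CPM in Acp5-led diabetic cells, with Cxcr4 at 193 CPM. Over all kept cells it summed to 10323 CPM in the diabetic library against 13522 CPM in the non-diabetic one. Its part in the Cxcr4 levels was not tested.

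Selplg had its highest level outside the monocyte and macrophage set, in the dendritic cell-like cells, at 231 CPM in the diabetic library against 354 CPM in the non-diabetic one. The diabetic interval (203 to 261 CPM) overlapped that of diabetic classical monocyte-like cells. The non-diabetic dendritic cell-like cells made up 10.95% of that library's cells and held 27.1% of its Selplg UMIs. Within the set Selplg was highest in classical monocyte-like cells, at 187 CPM in the diabetic library against 214 CPM in the non-diabetic one. It was lowest in Orm1-led diabetic cells, at 65.7 CPM (59.3 to 72.6), and the Nrg1-led, Lpl-led, Il6-led and Acp5-led diabetic states all lay between 80 and 90 CPM with overlapping intervals. The Lpl-led interval also overlapped that of the Orm1-led cells.

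The 3 integrin genes had different orders of states. Itga4 and Itgal were both highest in classical monocyte-like cells. Itga4 stood there at 190 CPM in the diabetic library against 167 CPM in the non-diabetic one, and was lowest in the Orm1-led diabetic cells (4.77 CPM, 28 UMIs) and the Inhba-led non-diabetic cells (13.04 CPM, 36 UMIs). Itgal stood at 168 CPM (150 to 187) in diabetic and 82.0 CPM (70.7 to 94.5) in non-diabetic classical monocyte-like cells. The next level in the diabetic library was 66.1 CPM, in Ifit2-led cells. Itgal was lowest in dendritic cell-like cells, at 10.8 CPM (5.61 to 19.0) in the diabetic library against 7.93 CPM (4.78 to 12.4) in the non-diabetic one. The levels of 15.7 CPM in Acp5-led and 17.7 CPM in macrophage-like diabetic cells lay within the first of these intervals. The dendritic cell-like level is thus not told apart from them. The part of free RNA in these low Itgal levels was not tested. Itgam differed from Itga4. It was at 897 CPM (873 to 921) in Orm1-led diabetic and 1242 CPM (1200 to 1284) in Inhba-led non-diabetic cells, the states with almost no Itga4 or Cx3cr1, and at 352 CPM in diabetic and 380 CPM in non-diabetic classical monocyte-like cells. Its lowest level was in the dendritic cell-like cells, at 221 and 214 CPM.

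**Figure D2:**
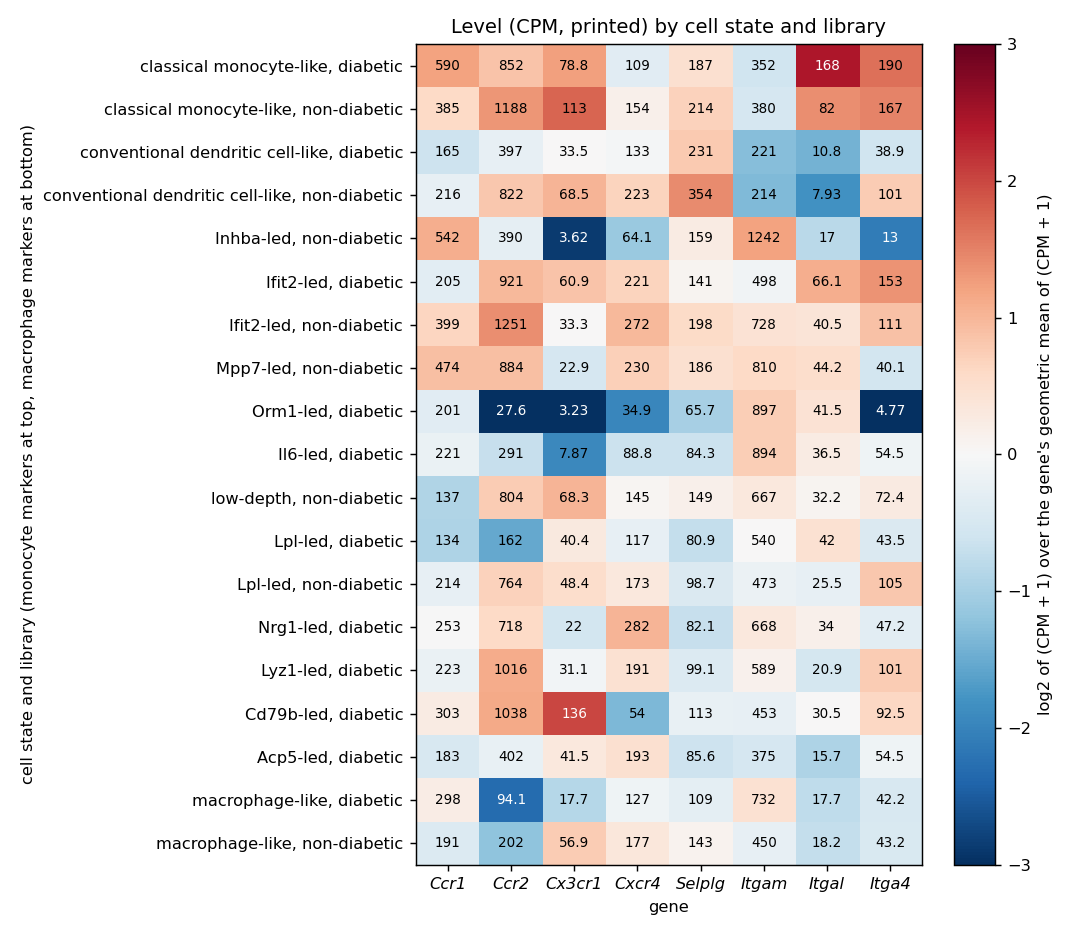
Level of each gene (columns) in each cell state and library with at least 20 cells (rows, from most monocyte markers at the top to most macrophage markers at the bottom; dendritic cell-like cells are placed by the same share). Numbers are CPM and colours the log2 of (CPM + 1) over the gene's geometric mean of (CPM + 1); Orm1-led diabetic and Inhba-led non-diabetic cells are dark blue for Cx3cr1 and Itga4 and red for Itgam (897 and 1242 CPM).

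The low levels of the Orm1-led state stood beside a high sum of a neutrophil marker list. That list, with 9 of 10 genes detected, summed to 18381 CPM in the Orm1-led diabetic cells, against 24.2 to 1149 CPM in the other states with at least 20 cells of a library. S100a8 made up most of it, at 17348 CPM, with S100a9 at 746 CPM and Mmp9 at 206 CPM. Of the other listed genes, Ly6g had 0 UMIs in the 307 cells, Camp 2, Cxcr2 3, G0s2 6, Hdc 7 and Retnlg 38. Csf3r had 420 UMIs in 176 of these cells, or 71.5 CPM, beside 95.4 CPM in diabetic classical monocyte-like cells. The 16 neutrophil-like cells had 27761 CPM of S100a8, 41201 CPM of S100a9, 3908 CPM of G0s2 and 433 CPM of Cxcr2. They had 624 CPM of Csf3r, 4060 CPM of Retnlg and 1068 CPM of Hdc, but only 5 UMIs of Ly6g and 0 of Camp. The part of neutrophil RNA in the Orm1-led levels was not tested.

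Within the set of monocytes and macrophages, single cells were also placed on an axis by their macrophage share of marker UMIs, in 5 bins of equal width that are ranges and not cell types. Cells with at least 5 marker UMIs entered, 1651 diabetic and 973 non-diabetic, and 288 and 138 of them lay within 2 points of a bin edge. The last bin held 25.1% of the diabetic cells on the axis and 9.76% of the non-diabetic cells, and the first bin 18.7% and 44.5%. Classical monocyte-like cells were the largest group of the first bin in both libraries, and macrophage-like cells that of the last bin. In the diabetic library the last bin held 149 macrophage-like, 90 Acp5-led and 71 Cd79b-led cells among 414. In the non-diabetic library it held 21 macrophage-like, 20 Mpp7-led and 16 Lpl-led cells among 95. Macrophage-like cells were thus less than a majority in each.

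Of the 8 genes Itgal had the steepest gradient from the monocyte to the macrophage end. It was at 98.9 CPM in the first and 15.01 CPM in the last bin of the diabetic library, and at 57.0 and 12.4 CPM in the non-diabetic library, where the last bin rests on 14 UMIs. The log2 ratios of the last over the first bin were -2.72 (-3.03 to -2.43) and -2.15 (-3.09 to -1.44). Ccr2 was at 606 CPM in the first and 347 CPM in the last diabetic bin, and at 915 and 588 CPM in the non-diabetic bins, with log2 ratios of -0.80 and -0.64. The Ccr2 levels between were not in order: in the diabetic library the fourth bin, at 585 CPM, was close to the first. Without the Orm1-led and Inhba-led states, the diabetic Ccr2 levels were 859, 752, 590, 640 and 351 CPM from first to last bin. The fourth bin then lay below the first. Those states were left out after the data were seen. Ccr1 was lower at the macrophage end in both libraries (log2 ratios -0.60 and -0.85), reaching 246 CPM in the last diabetic and 242 CPM in the last non-diabetic bin. In the diabetic library it was at 372 CPM in the first bin and between 231 and 246 CPM in the others.

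Cxcr4 and Cx3cr1 were higher in the last than in the first bin, but not in step from bin to bin. Cxcr4 was at 81.6 CPM in the first and 170 CPM in the last diabetic bin (log2 ratio 1.06, 0.90 to 1.23), and at 158 and 210 CPM in the non-diabetic bins (0.41, 0.20 to 0.61). The diabetic level was highest in the fourth bin, at 190 CPM. The non-diabetic levels between were 202, 198 and 200 CPM. Without the Orm1-led and Inhba-led states the non-diabetic level was 189 CPM in the first, 253 CPM in the second and 215 CPM in the last bin. Cx3cr1 was at 41.4 and 57.2 CPM in the first and last diabetic bins (0.46, 0.22 to 0.71) and at 46.6 and 80.5 CPM in the non-diabetic bins (0.79, 0.43 to 1.13), with its lowest levels between them, at 16.9 CPM in the second diabetic and 34.6 CPM in the third non-diabetic bin. The main states of the last diabetic bin differed in Cx3cr1. Over each whole state it was at 136 CPM in Cd79b-led, 41.5 CPM in Acp5-led and 17.7 CPM in macrophage-like diabetic cells. Without the Orm1-led and Inhba-led states, left out after the data were seen, the diabetic Cx3cr1 ratio was -0.019. Itga4 was lower in the last bin (log2 ratios -0.88 in the diabetic and -0.43 in the non-diabetic library), as was Selplg (-0.32 and -0.35). Without those states Itga4 was at 147 and 56.6 CPM in the first and last diabetic bins. In the non-diabetic bins it was then at 120 and 74.9 CPM. Itgam was at 572 and 571 CPM in the first and last diabetic bins and highest between, at 747 CPM in the third. In the non-diabetic library it was at 655 and 540 CPM (log2 ratio -0.28, -0.40 to -0.16) and highest in the second bin, at 899 CPM. Without the Orm1-led and Inhba-led states Itgam was at 491 CPM in the first and 566 CPM in the last diabetic bin. The highest diabetic level was then 643 CPM, in the second bin, and the highest non-diabetic level 760 CPM, in the third.

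In each library 6 of the 8 genes were lower in the last than in the first bin, beside 31.7% of all measured genes in the diabetic and 33.0% in the non-diabetic library. The diabetic count includes Itgam, at a log2 ratio of only -0.0024 with an interval reaching past 0 (-0.07 to 0.07). By at least 1.5 times, 4 genes were lower in the diabetic library (9.32% of all measured genes) and 1 was higher (27.0%), and in the non-diabetic library 3 were lower (10.9%) and 1 was higher (33.1%). The medians of the 8 log2 ratios were -0.46 and -0.39, beside 0.24 and 0.29 over all genes.

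**Figure D3:**
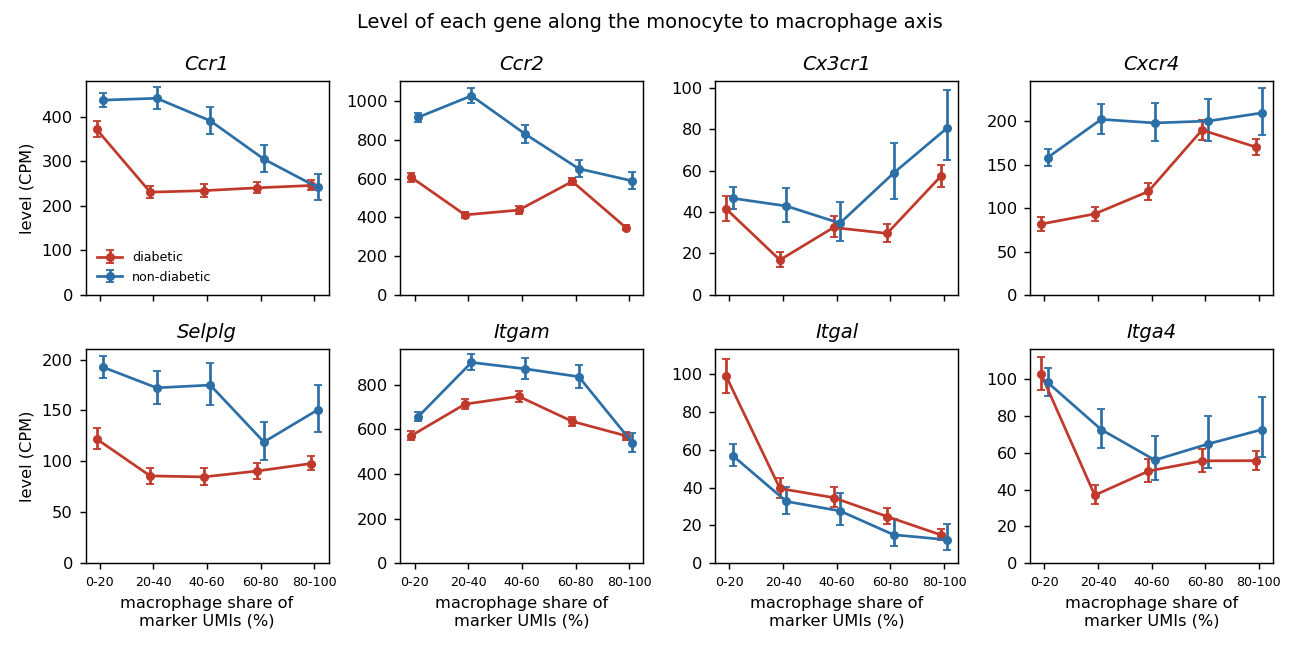
Level of each gene (CPM, linear axis from 0) in 5 bins of the macrophage share of marker UMIs, diabetic library red and non-diabetic library blue, with 95% counting intervals. Itgal is lower from bin to bin in both libraries (98.9 to 15.01 CPM across the diabetic bins, 57.0 to 12.4 CPM across the non-diabetic bins), while Cxcr4 is higher in the last than in the first bin.

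The libraries could then be set against each other at like marker shares, although a bin held different states in each library. Orm1-led cells, with 27.6 CPM of Ccr2, were 71 of the 309 diabetic cells of the first bin, 121 of 317 in the second and 67 of 277 in the third. On the non-diabetic side Inhba-led cells were 61 of the 204 cells of the second bin. Ccr2, Cx3cr1, Cxcr4 and Selplg had the lower level on the diabetic side in 5 of 5 bins, and Itgal was lower in 0 of 5. The intervals reached past 0 for Cx3cr1 in the first and the third bin, for Cxcr4 in the fourth and for Itgal in the second, the third and the last. The Ccr2 log2 ratio was -0.59 in the first bin, -1.32 in the second, -0.92 in the third, -0.15 in the fourth and -0.76 in the last. Weighting the bins alike in both libraries, by their share of all cells, gave 488 CPM of Ccr2 in the diabetic library against 816 CPM in the non-diabetic one, a log2 ratio of -0.74. Selplg stood at 99.0 and 165 CPM (-0.74) and Cxcr4 at 125 and 190 CPM (-0.60). Itgal was higher in the diabetic library at this equal mix, at 48.3 against 31.9 CPM, a log2 ratio of 0.60, where the unweighted ratio over the same cells was -0.05. The equal mix put Itga4 at -0.24 and Itgam at -0.23. Without the Orm1-led and Inhba-led states, the Ccr2 log2 ratio was -0.29 in the first bin, -0.76 in the second, -0.67 in the third, -0.23 in the fourth and -0.78 in the last, and Cx3cr1 was no longer lower in the first bin (0.011), nor Itgal higher in the second (-0.010). The equal mix then gave 661 CPM of Ccr2 in the diabetic library against 942 CPM in the non-diabetic one (-0.51), with Selplg at -0.60, Cxcr4 at -0.53, Itgal at 0.56, Itgam at -0.12 and Itga4 at -0.11.

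Differences within a state could be given for the 5 states with at least 20 cells of each library. Ccr2 was lower in the diabetic cells of all 5. The widest gap was in the Lpl-led state, led by the lipoprotein lipase gene, at 162 CPM in 39 diabetic against 764 CPM in 99 non-diabetic cells (log2 ratio -2.23, -2.54 to -1.95). The Lpl-led cells of the libraries also differed in marker lists: monocyte axis genes summed to 925 CPM in diabetic against 2949 CPM in non-diabetic cells, macrophage axis genes to 3135 against 2384 CPM and neutrophil genes to 636 against 66.0 CPM. Their part in the Ccr2 gap was not tested. Among classical monocyte-like cells it was smaller, at -0.48 (-0.57 to -0.39). Cxcr4 and Selplg were also lower in the diabetic cells of all 5 states, with log2 ratios between -0.74 and -0.30 for Cxcr4 and between -0.62 and -0.19 for Selplg, although the Selplg intervals of the classical monocyte-like, Lpl-led and macrophage-like states reached 0. Without the macrophage-like cells that held at least 3 fibroblast UMIs, the macrophage-like ratios were -0.75 (-1.08 to -0.38) for Cxcr4 and -0.68 (-1.05 to -0.27) for Selplg.

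Ccr1, Cx3cr1, Itga4 and Itgam had ratios of opposite sign in different states. In classical monocyte-like cells Ccr1 was higher in the diabetic library (log2 ratio 0.61, 0.49 to 0.74), as was Itgal (1.03, 0.77 to 1.30), and none of the 8 genes was lower by 1.5 times, beside 12.2% of measured genes lower and 10.7% higher by that fold. In Ifit2-led cells Ccr1 was lower (-0.95, -1.25 to -0.68) and Cx3cr1 (0.88) and Itgal (0.72) were higher, which made 1 gene lower and 2 higher by 1.5 times, beside 15.5% and 19.3% of genes. In dendritic cell-like cells 5 of the 8 genes were lower by that fold and 0 higher, beside 15.4% and 10.5% of genes. Those were Itga4 (-1.37), Ccr2 (-1.05), Cx3cr1 (-1.02), Cxcr4 (-0.74) and Selplg (-0.62). In Lpl-led cells Ccr2, Itga4 (-1.25) and Ccr1 (-0.67) were lower and Itgal (0.73, interval -0.05 to 1.46) was higher by the fold, beside 18.6% and 14.0% of genes. A list of interferon-induced genes summed to 209 CPM over all diabetic against 1232 CPM over all non-diabetic cells. It summed to 199 CPM in diabetic against 447 CPM in non-diabetic classical monocyte-like cells, and likewise to 351 against 819 CPM in Lpl-led, 103 against 350 CPM in macrophage-like and 251.4 against 560 CPM in dendritic cell-like cells. In Ifit2-led cells the sums were close, at 3662 CPM in the diabetic library against 3716 CPM in the non-diabetic one, and the Ccr2 ratio there was -0.44. Its part in these ratios was not tested.

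In macrophage-like cells 2 genes were lower by at least 1.5 times and 2 were higher, beside 23.8% and 13.9% of measured genes. Ccr2 (-1.11) and Cx3cr1 (-1.71) were the lower ones, and Ccr1 (0.63) and Itgam (0.70) the higher ones. The non-diabetic side rests on 28 cells, of which 1 carried fibroblast RNA: the fibroblast marker list summed to 21.7 CPM in diabetic and 9999 CPM in non-diabetic macrophage-like cells. Without the cells holding at least 3 UMIs of that list, 208 diabetic and 27 non-diabetic cells remained, and the log2 ratios were -1.34 for Ccr2, -1.96 for Cx3cr1, 0.36 for Ccr1 and 0.44 for Itgam. With Cxcr4 and Selplg at the values given above, 4 genes were then lower and 0 higher by at least 1.5 times, beside 21.9% and 14.8% of measured genes.

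**Figure D4:**
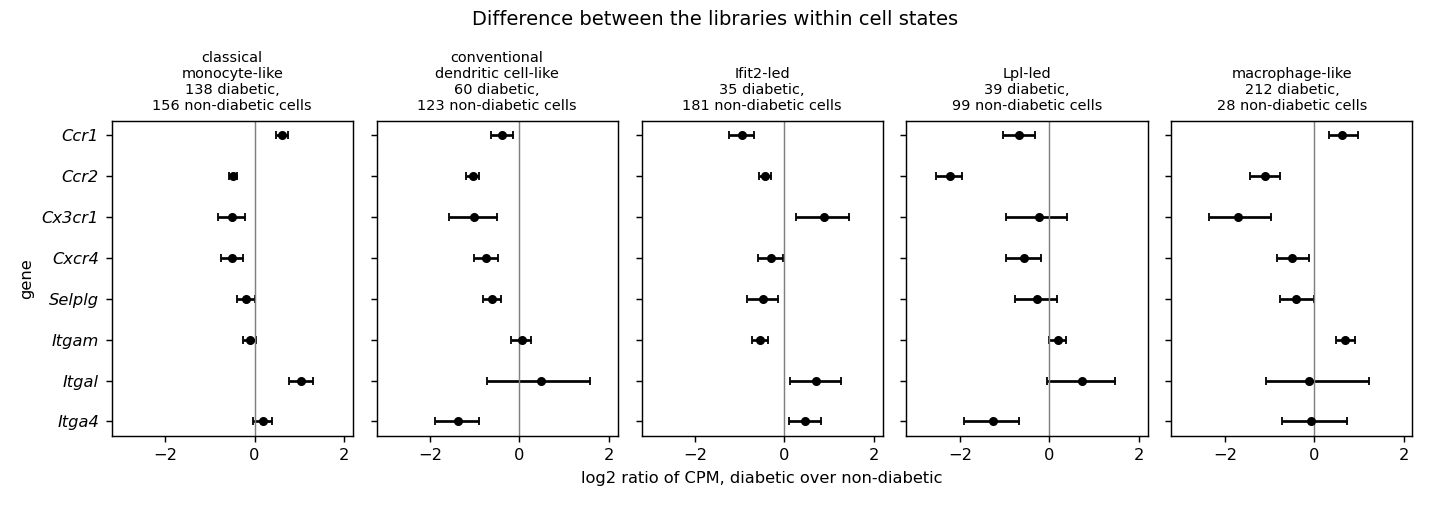
Log2 ratio of CPM, diabetic over non-diabetic, for each gene within the 5 states with at least 20 cells of each library, with 95% counting intervals; the vertical line marks equal levels. Ccr2 lies left of the line in all 5 panels (from -2.23 to -0.44), while Ccr1 and Itgam lie on different sides in different states.

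The genes were also compared with each other across cells and states. In cells of the set thinned to 2000 UMIs, an Itga4 UMI was found in 15.8% of the 785 diabetic cells with a Ccr2 UMI (13.3 to 18.5%) and in 5.16% of the 872 without (3.79 to 6.84%), and likewise in 19.7% of 625 and 6.49% of 339 non-diabetic cells. A Cx3cr1 UMI was found in 9.04% of diabetic cells with and 3.21% without a Ccr2 UMI, and in 9.44% and 2.36% of non-diabetic cells. An Itgam UMI was less frequent beside Ccr2, at 62.7% with and 69.4% without in the diabetic library and 71.7% and 79.9% in the non-diabetic library. These shares are a description, since cells of a state share their RNA background and library.

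Across 15 units of state and library with at least 50 cells, the profile of Itga4 was most like that of Cx3cr1 among the 8 genes (Pearson's r of log2(CPM + 10) 0.83) and next Ccr2 (0.77), while Itgam ran against Cx3cr1 (-0.74) and Itga4 (-0.55). Units share libraries and depth, so these values are descriptions. Among other genes with at least 500 UMIs, the profile most like that of Ccr2 was Ifi27l2a (r 0.89), for Cx3cr1 Ppp1ca (0.93), for Ccr1 Cd300lf (0.88), for Cxcr4 Fos (0.84), for Selplg Snx20 (0.93), for Itgam Tmem63a (0.96), for Itgal Il17ra (0.91) and for Itga4 Psmb10 (0.94). Each is the highest of 6650 candidate genes over 15 units, and the best of so many can reach a high r by selection alone. With Spearman's correlation Ifi27l2a, Il17ra and Psmb10 were not among the 5 most like genes. Snx20 encodes a sorting nexin known to bind the cytoplasmic tail of the Selplg product.

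Of 86 further genes of the same pathways, 70 had at least 20 UMIs over both libraries. As background to each list below, 12.9% of all measured genes were lower and 18.7% higher in the diabetic library by at least 1.5 times. Among the other chemokine receptors, 9 of 20 were measured, with 3 lower and 4 higher by that fold. The higher ones, named after their values were seen, were Ccr6, Cxcr2, Cxcr3 and Ackr3. The intervals of Ccr6 and Cxcr3, with 31 diabetic UMIs each, reached below 0. For Cxcr2, 77 of the 89 diabetic UMIs came from the 16 neutrophil-like cells. Ccrl2, an atypical receptor that binds chemerin, was at 376 CPM in the diabetic library against 835 CPM in the non-diabetic one (log2 ratio -1.15). Ccr7, which guides dendritic cells to lymph nodes, was at 4.53 and 43.9 CPM in the same order of libraries (-3.27) and highest in dendritic cell-like cells. Cmklr1, the signalling chemerin receptor, was at 55.3 CPM in diabetic against 38.4 CPM in non-diabetic cells (0.53).

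Of 10 chemokine ligands of the 4 receptors 9 were measured, 6 lower and 1 higher by at least 1.5 times, with a median log2 ratio of -1.03. The CCR2 ligand gene Ccl2 was at 402 CPM in the diabetic library against 958 CPM in the non-diabetic one (-1.25). The CCR1 ligand gene Ccl9 was at 698 and 1507 CPM (-1.11), and Ccl3 at 1581 and 1383 CPM (0.19). Ccl4 was at 1117 and 2275 CPM (-1.03).

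The integrin beta chain genes differed among themselves. Itgb2, the partner of Itgam and Itgal, was at 319 CPM in the diabetic library against 364 CPM in the non-diabetic one (-0.19). Itgb1 and Itgb7, the partners of Itga4, were at 299 and 224 CPM (0.41) and at 53.1 and 160 CPM (-1.59), in the same order of libraries. Itgav was close to equal (-0.12). In the integrin list, 10 of 12 were measured, 3 lower and 1 higher by at least 1.5 times.

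Among selectins and the enzymes that build selectin ligands, 10 of 11 were measured, 3 lower and 1 higher by the fold. B4galt1 (-0.85), St3gal4 (-0.54) and Tpst2 (-0.40), which encode a galactosyltransferase, a sialyltransferase and a tyrosine sulfotransferase, were lower. In the list of other adhesion genes 14 of 15 were measured, 3 lower and 3 higher by the fold, with Cd44 at -0.53, Cd9 at -0.99, Cd47 at -0.02 and Icam1 at 0.00. The 18 genes of integrin activation and receptor signalling were all measured, with a median of -0.01, 9 below and 9 above 0. By the fold 2 were lower and 0 higher: Rgs1, at 188 CPM in the diabetic library against 339 CPM in the non-diabetic one (-0.85), and Cyth1 (-0.76), both named after their values were seen. Rgs1 encodes a protein that dampens G protein signalling and Cyth1 an exchange factor for ARF proteins. The 4 genes with most UMIs differed by less, with Gnai2 at -0.02, Rap1b at 0.15, Tln1 at -0.06 and Rap1a at 0.14.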

How the data were processed

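Raw UMI counts per gene and barcode were deposited by the authors, made with Cell Ranger (version 3.0.2 per the file headers) with mm10 named in the submitters' processing notes. For the gene models, intron counting and strand setting, the sources used here name no release or choice. All 8 genes and all lists were chosen with earlier results of these data known.

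Barcodes had to reach 500 genes and stay below 10% mitochondrial UMIs. Scrublet marked 4 diabetic and 2 non-diabetic cells (0.228% and 0.178%), which were kept, and doublets may remain. After scaling each cell to its total and taking logs, 2000 variable genes, without the 8 genes and the lists of related genes, gave 30 principal components and 15 neighbours per cell for leidenalg 0.10.2 at resolution 1 (scanpy 1.11.5, Python 3.11.15), with no batch correction. A cluster took a name with at least 3 markers and 50% of a list at 2-fold or more and in 10% of its cells, a rule set with the values in view. Any cluster with a median UMI count under 1/3 of its library's is called low-depth unless markers of its type were among its 10 leading genes, as for the neutrophil-like cells.

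CPM came from summed counts with exact Poisson intervals, ratios used 0.5 added counts and conditional exact binomial intervals, and shares Clopper-Pearson intervals. Thinning drew 2000 UMIs per cell and left out 25 diabetic and 37 non-diabetic shallower cells. Genes named from the related lists were the 4 with most UMIs in each list, of which 2 genes are not reported here, and Fos and others by the highest profile correlation. Calculations were tested on simulated counts. Alternatives used edgeR 4.0.16 and DESeq2 1.42.0 for scaling only. Near-identical transcripts were sought with BLAST 2.17.0 at 95% identity over at least 200 bases.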

Additional observations from a re-analysis of the deposited data

Results flagged for a closer look

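Of the 8 genes, 4 had log2 ratios of opposite sign, diabetic over non-diabetic, in different cell states, with counting intervals on both sides that did not reach 0. The differences between states were not tested, since each condition had 1 library. Ccr1 stood at 0.63 in macrophage-like and at -0.95 in Ifit2-led cells. Cx3cr1 stood at 0.88 in Ifit2-led cells, from 35 diabetic UMIs, and at -1.71 in macrophage-like cells, from 25 non-diabetic UMIs. Itgam stood at 0.70 in macrophage-like and at -0.55 in Ifit2-led cells. Itga4 stood at 0.47 in Ifit2-led and at -1.37 in conventional dendritic cell-like cells. The macrophage-like values include the non-diabetic cell with fibroblast RNA, and without the cells holding at least 3 UMIs of the fibroblast list they were 0.36 for Ccr1, -1.96 for Cx3cr1 and 0.44 for Itgam.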

How the results depend on the processing

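No paired analysis was possible because each condition had 1 library, and for the same reason no library could be left out. The log2 ratios of Ccr1, Ccr2, Cx3cr1, Cxcr4, Selplg and Itga4 were below 0 under all 14 alternatives, at -1.06 to -0.60 for Ccr2 and -1.12 to -0.74 for Selplg. Itgam stood at 0.24 without the Inhba-led state, and Itgal at -0.04 in the monocyte and macrophage set alone. The median over the 8 genes was -0.61 with TMM and -0.62 with DESeq2 scaling, -0.39 with each cell weighted equally, -0.69 without the Inhba-led state and -0.25 without the Orm1-led state, the last chosen after seeing the data. The genes lower by at least 1.5 times, 2 in the report, numbered 5 with TMM, 6 with DESeq2 and 5 without the Inhba-led state, beside 15.7%, 15.9% and 13.8% of measured genes, and 1 gene, Itgal, was higher by that fold at an equal mix of axis bins. The scaling shift was -0.11 (TMM) and -0.12 (DESeq2), and lower genes then made up 51.9% and 52.6% of genes past the fold. With at least 100 UMIs 984 genes were lower and 1515 higher by 1.5 times, and with at least 1 UMI 3916 and 4688, against 1586 and 2313, since other numbers of genes were counted. The diabetic Cx3cr1 axis ratio was -0.019 without the Orm1-led and Inhba-led states, and the non-diabetic Itgam axis ratio 0.089 after thinning. Without those states, chosen after seeing the data, Ccr1 stood at 0.061 in the first and 0.012 in the fourth axis bin. The cause was not tested. The count of genes lower in the last axis bin stayed within 1.5 times of 6 in both libraries under all 8 axis alternatives. Of the 8 genes' ratios under the alternatives, 59 stayed within their counting intervals, 52 moved and 1 reversed. Along the axis these numbers were 36, 27 and 1 in the diabetic and 49, 14 and 1 in the non-diabetic library. Within states, 44 recomputed ratios stayed within their intervals and 4 moved, among them Ccr2 in Lpl-led cells, at -2.59 with each cell weighted equally, and Itgam in macrophage-like cells, at 0.47. For the genes most like each of the 8, Spearman's correlation kept 1 to 3 of 5. Some Itgal, Cx3cr1 and Itga4 values rest on fewer than 30 UMIs, also in the large Orm1-led and Inhba-led states, with 19 and 10 Cx3cr1 UMIs.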
